A study of Mus musculus with 4 samples.

Results

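The transcripts of 34 genes of cholesterol and fatty acid synthesis were examined in RNA that came down with Cpeb4, a cytoplasmic polyadenylation element-binding protein, from the ventricular-subventricular zone (V-SVZ) of newborn mice. The V-SVZ is the neurogenic tissue that lines the lateral ventricles. The 34 genes were chosen by name, as enzymes of sterol and fatty acid synthesis and their regulators. All 34 were among the 53379 genes of the deposited table, and all 34 passed the filter on low values that left 15745 genes for testing. The immunoprecipitates were made with anti-Cpeb4 or control IgG. The lysed V-SVZ tissue came from CD1 mice, all wild type and aged P7 or P8 (days after birth). The experiment was done 2 times, which gave 2 Cpeb4 and 2 IgG libraries. How many animals went into a lysate, and whether the experiments used separate animals, is not given in the sources used here, so p-values cover only the spread seen among these 4 samples, which could be technical. Both antibodies were applied to tissue of the same genotype, strain and age. No input RNA was analysed here, so the level of a transcript in the tissue, and with it fewer cells of a type or less RNA per cell, cannot be told apart from its recovery by the antibody.

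Cells build cholesterol from acetyl-CoA through mevalonate, isoprenoid diphosphates, squalene and a long series of changes to the sterol ring. The brain makes nearly all of its own cholesterol, since lipoproteins do not cross the blood-brain barrier, and glia are a main source. Transcription of these enzymes is driven by the SREBP factors (Srebf1 and Srebf2), which the escort protein Scap carries out of the endoplasmic reticulum and which the Insig proteins hold back when sterols are plentiful. Fatty acids are built by Acly, Acaca and Fasn, then desaturated, elongated and joined to coenzyme A by further enzymes.

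The sterol element, the DNA letters through which SREBP factors act, is shown where it was found, because it is the feature that textbook accounts of these genes share. The promoter sequences are from RefSeq (GRCm38.p6) and run from 250 bases before to 50 bases after a start site. They were available for 28 of the 34 genes, in 36 promoters. The letters TCACNCCAC on either strand were present in 1 of these 36 promoters (2.78%) and in 1.24% of all 32851 promoters of the same length. The E-box CACGTG, which reads the same on both strands and is also bound by SREBP factors, was present in 7 of the 36 (19.4%) and in 7.15% of all promoters. The 7 promoters belong to 6 genes, since the same Scap site was counted in more than 1 promoter. The letters CCAAT on either strand, bound by NF-Y, were present in 23 of the 36 (63.9%) and in 37.4% of all. Windows of 30 bases follow, 5′ to 3′ on the strand of the gene, with the matched letters in capitals.
Hmgcs1, chr13:119690204-119690233, plus strand: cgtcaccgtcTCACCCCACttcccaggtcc
Insig1, chr5:28071299-28071328, plus strand: gctgggtgaggtCACGTGgctccggtggca
Hsd17b7, chr1:169969331-169969360, minus strand: ggacccttgtgtCACGTGgctccgcccctc
Sc5d, chr9:42264381-42264410, minus strand: ctacgcggcgacCACGTGaccgccgcgacc
Elovl5, chr9:77917192-77917221, plus strand: actgccccgagaCACGTGaaccacaggaga
Dhcr7, chr7:143823223-143823252, plus strand: cgctgtgatgaaCACGTGgcaaaaagcagc
Scap, chr9:110333304-110333333, plus strand: cgccgccgggagCACGTGtggagggcggcg
The matched letters lie 137 bases before the start site of Hmgcs1 and 101 before that of Insig1. The windows are listed by call. The 5 genes listed first were higher in Cpeb4 immunoprecipitates, and Dhcr7 and Scap were not called. Of all 34 members 52.9% were called higher, and of all tested genes 38.8%. A link between the letters and the calls was not tested. A match describes letters in a window and shows neither binding nor a cause, and an immunoprecipitation of RNA does not read promoters.

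Levels are the FPKM values of the authors, which are scaled to gene length and depth and so can be set side by side for different genes. Each gene was tested with limma on log2(FPKM + 1), with experiment as a block, two-sided, and was called at a Benjamini-Hochberg adjusted p under 0.05 over all 15745 tested genes. A fold change is Cpeb4 over IgG on the FPKM + 1 scale, on which low genes appear to change less than they do. The 4 libraries held 22486721 to 35037171 reads on genes, and a single member was covered by 238 to 75172 reads in a library. Markers of cell types were read for detection: of 8 neuroblast markers the lowest value in any library was 17.1 FPKM. It was 3.88 FPKM for 8 stem cell and astrocyte markers and 3.21 FPKM for 5 ependymal markers. Oligodendrocyte, microglia and vascular markers had lowest values of 3.50, 3.69 and 2.13 FPKM. Detection alone cannot tell the V-SVZ from other brain tissue, since no other tissue was compared. Cpeb4 mRNA itself was at 26.7 and 38.3 FPKM in Cpeb4 immunoprecipitates, against 9.04 and 9.66 FPKM in IgG (log2 fold change 1.67, SE 0.13, limma adjusted p = 9.59e-08).

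Transcripts for sterol synthesis, the Insig proteins, fatty acid desaturation and elongation, and acyl-CoA ligases were among those higher in Cpeb4 immunoprecipitates, and none of the 3 for fatty acid synthesis itself was. Of the 34 members, 18 were called higher, 2 lower and 14 not called. Over all tested genes 38.8% were called higher and 11.6% lower, against 52.9% and 5.88% of the members. The median log2 fold change was 0.41 over the members and 0.19 over all tested genes. At least a 2-fold change was seen in 10 members (29.4%), against 10.8% of all tested genes. The Cpeb4 values lay wholly above the IgG values for 24 members and wholly below for 4, against 53.2% and 22.7% of all tested genes, and the antibodies overlapped for the other 6.

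**Figure D1:**
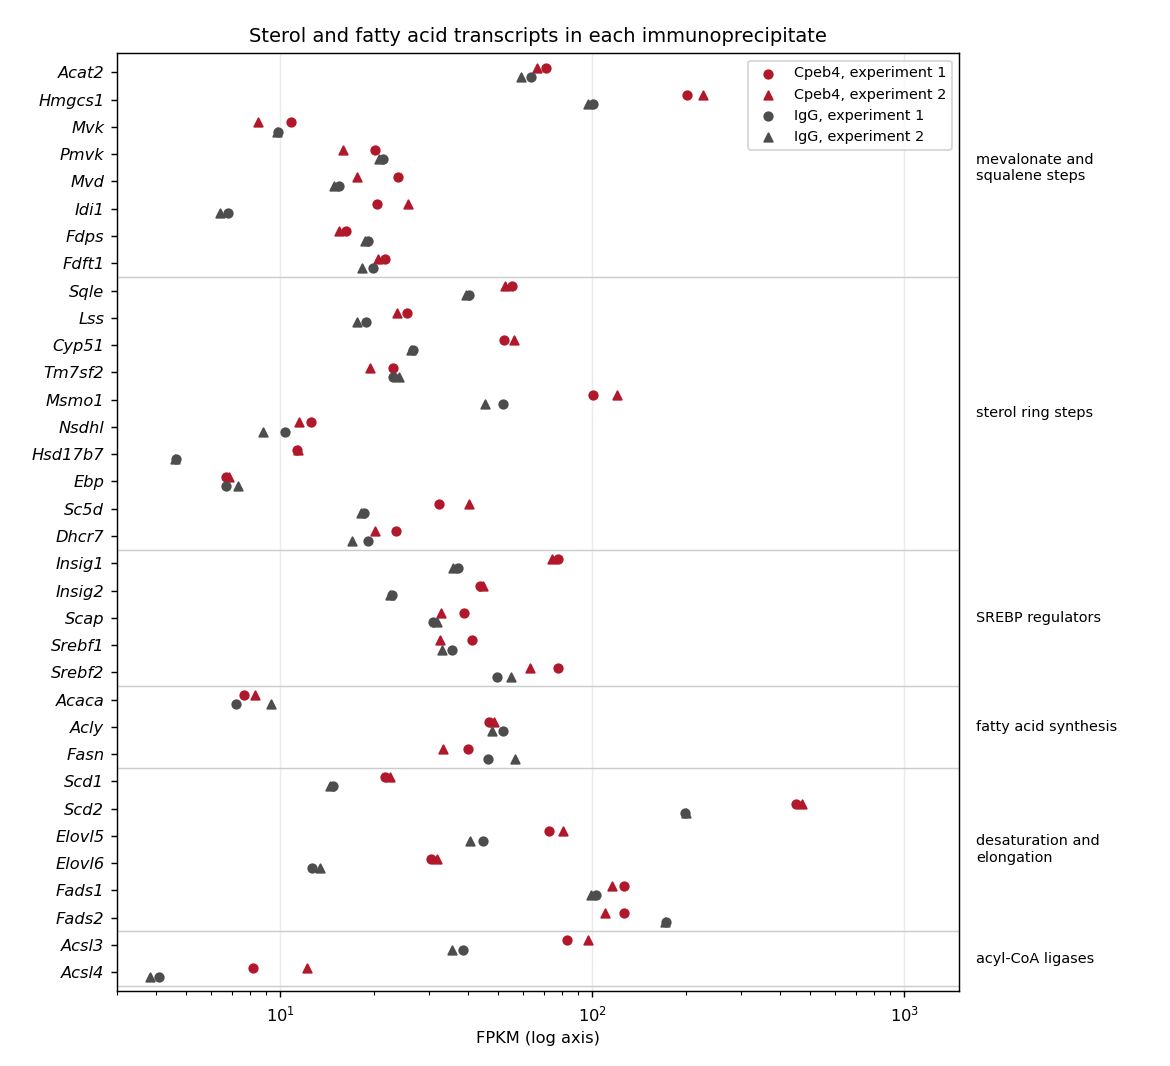
FPKM (x axis, log scale) of each of the 34 members in each library, with Cpeb4 libraries in red above IgG libraries in grey and the experiment shown by circle or triangle. Scd2 is the most abundant member, at 449 and 469 FPKM in Cpeb4 and 199 and 199.5 FPKM in IgG immunoprecipitates.

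Of the 18 higher calls, 13 held under every library scaling tried and 5 held with that of the authors alone. With the authors' scaling the median log2 fold change of all tested genes was 0.19, and it was -0.24 with libraries scaled to read totals, -0.17 by upper quartile, -0.04 by trimmed mean of M-values and -0.11 with centring on the median of tested genes. Under all 5 scalings 13 members (38.2%) were higher, against 17.3% of all tested genes. These 13 were Hmgcs1, Idi1, Cyp51, Msmo1, Hsd17b7, Sc5d, Insig1, Insig2, Scd2, Elovl5, Elovl6, Acsl3 and Acsl4. Mvd, Sqle, Lss, Srebf2 and Scd1 were higher with the authors' scaling and were not called under the other 4. By scaling, members called lower numbered 13 with read totals (background 42.4%), 10 by upper quartile (37.2%), 6 by trimmed mean of M-values (25.6%) and 9 with centring (30.8%), while 13 were higher under each (background 17.5%, 20.6%, 25.6% and 22.9% in the same order). Fasn and Fads2 were lower under all 5 scalings, as were 11.6% of all tested genes. Of the 14 members that were not called, 11 were called lower under at least 1 other scaling, and Nsdhl, Dhcr7 and Fads1 were called under none.

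**Figure D2:**
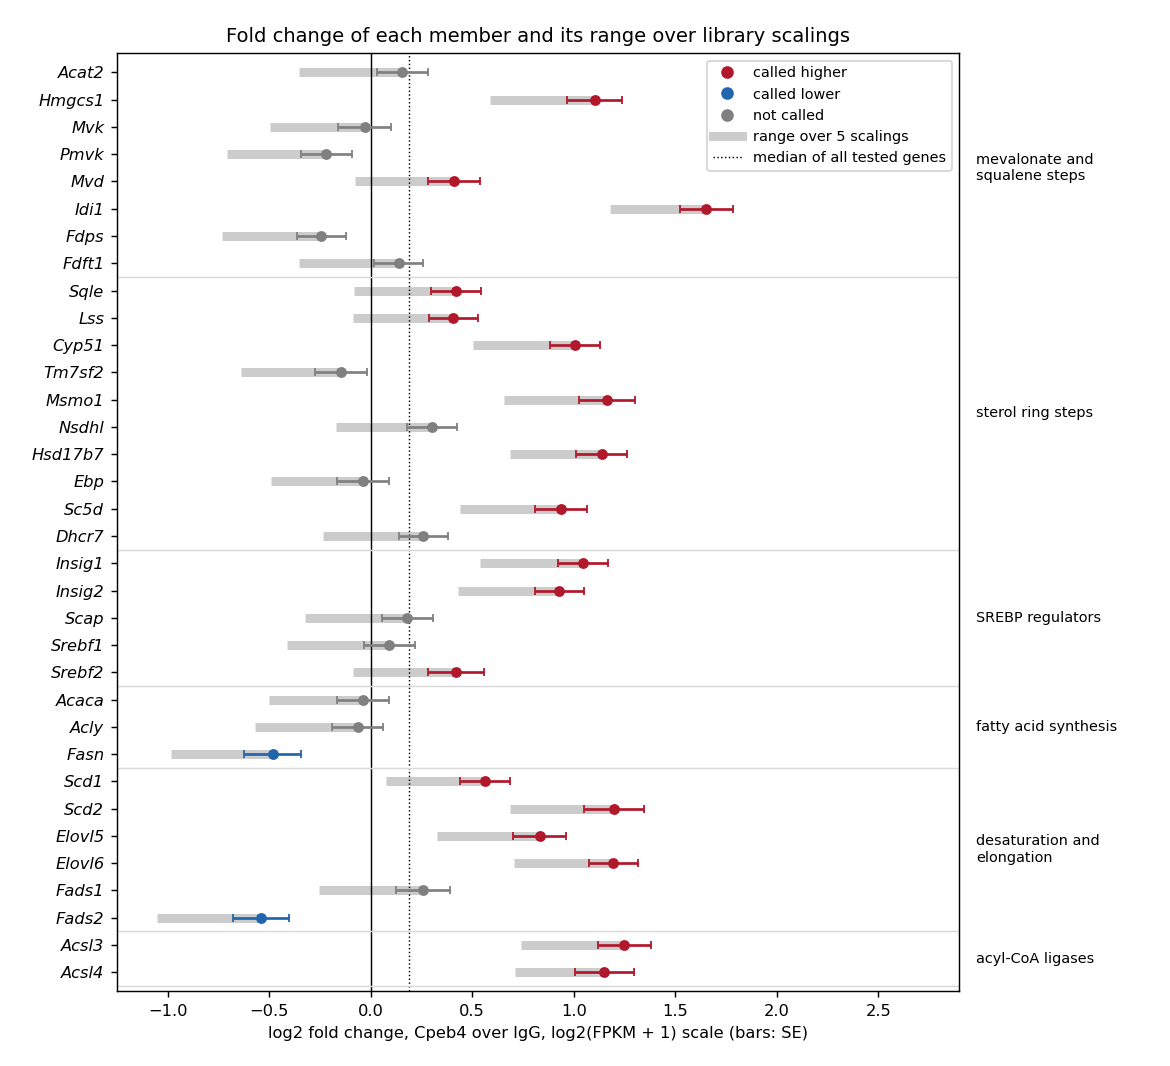
Log2 fold change of Cpeb4 over IgG (x axis, log2(FPKM + 1) scale) of each member with its SE, coloured by call, and in light grey its range over 5 library scalings. The ranges of 13 members stay above 0 with a call at each scaling, and the dotted line marks the median of all tested genes at 0.19.

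Enzymes that lead from acetyl-CoA to squalene differed among themselves, with a share of higher calls near that of all genes. The 8 members of these steps comprised 3 called higher (37.5%, against 38.8% of all tested genes) and 5 not called. Their median log2 fold change was 0.15, against 0.19 over all tested genes. Idi1, the isomerase that sets the balance of the isoprenoid building blocks (chromosome 13: 8885606 to 8892396, GRCm38), was at 20.5 and 25.6 FPKM in Cpeb4 immunoprecipitates, against 6.83 and 6.39 FPKM in IgG. Both Cpeb4 libraries lay above both IgG libraries, 3.14-fold on average (log2 1.65, SE 0.13, limma adjusted p = 1.01e-07), and 98.5% of all tested genes had a lower fold change. Hmgcs1, the synthase that makes HMG-CoA and whose promoter element is shown above (chromosome 13: 119690351 to 119708260), was at 201 and 226 FPKM in Cpeb4 and 101 and 96.8 FPKM in IgG. It was 2.15-fold higher with no overlap between antibodies (log2 1.10, SE 0.14, limma adjusted p = 6.44e-06).

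Of the other 6 enzymes of these steps, 1 was called higher. Mvd, the decarboxylase that makes isopentenyl diphosphate, was at 23.9 and 17.6 FPKM in Cpeb4 and 15.5 and 14.9 FPKM in IgG (log2 0.41, SE 0.13, limma adjusted p = 0.015). The experiments were unequal, with a difference in experiment 1 of 0.60 on the log2 scale against 0.22 in experiment 2. The Mvd call was lost without the Cpeb4 library of experiment 1 (log2 0.20, limma adjusted p = 0.0982), without either IgG library (0.43 and 0.39, limma adjusted p = 0.161 and 0.215) and without the experiment block (limma adjusted p = 0.0513). In the authors' deposited table, Mvd had a log2 fold change of 0.43 with an adjusted p of 0.0912, and it was the only member of the 34 whose call there differed from that of limma. Fdps, which joins the building blocks into farnesyl diphosphate, was at 16.3 and 15.4 FPKM in Cpeb4 and 19.2 and 18.7 FPKM in IgG. It was not called (log2 -0.24, SE 0.12, limma adjusted p = 0.106), though the other 4 scalings each called it lower. The kinases Mvk and Pmvk differed by log2 -0.03 and -0.22 (limma adjusted p = 0.866 and 0.16), with Mvk overlapping between antibodies at 10.9 and 8.47 FPKM in Cpeb4 and 9.87 and 9.77 FPKM in IgG. The thiolase Acat2 and the squalene synthase Fdft1 differed by log2 0.16 and 0.14 (limma adjusted p = 0.32 and 0.367). Pmvk and Fdps were called lower without the Cpeb4 library of experiment 1 (log2 -0.38 and -0.28, limma adjusted p = 0.00479 and 0.0244).

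The sterol ring steps, which turn squalene into cholesterol, comprised 6 members called higher and 4 not called, with a median log2 fold change of 0.41. The share called higher was 60%, against 38.8% of all tested genes, whose median was 0.19. Msmo1, the methylsterol oxygenase, was at 101 and 120 FPKM in Cpeb4, against 51.8 and 45.4 FPKM in IgG, 2.24-fold higher (log2 1.16, SE 0.14, limma adjusted p = 3.75e-06). Hsd17b7, the ketosteroid reductase of the same demethylation complex, was at 11.4 FPKM in both Cpeb4 libraries, against 4.64 and 4.60 FPKM in IgG, 2.20-fold higher (log2 1.14, SE 0.13, limma adjusted p = 1.89e-06). The libraries of an antibody were nearly equal for this gene, and its experiments gave differences of 1.13 and 1.15 on the log2 scale. Cyp51, the lanosterol demethylase that acts before these enzymes, was at 52.1 and 56.1 FPKM in Cpeb4 and 26.6 and 26.2 FPKM in IgG (log2 1.01, SE 0.12, limma adjusted p = 4.99e-06). Sc5d, a sterol desaturase near the end of the route, was at 32.3 and 40.2 FPKM in Cpeb4 and 18.5 and 18.1 FPKM in IgG (log2 0.94, SE 0.13, limma adjusted p = 1.58e-05). None of these 4 had overlapping antibodies.

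Other ring enzymes changed less or were not called. The epoxidase Sqle, which opens this stage and is a known control point, was at 55.1 and 52.4 FPKM in Cpeb4 and 40.3 and 39.4 FPKM in IgG, 1.34-fold higher (log2 0.42, SE 0.12, limma adjusted p = 0.00931). Lss, which closes the ring to lanosterol, was at 25.4 and 23.7 FPKM in Cpeb4 and 18.9 and 17.7 FPKM in IgG, 1.33-fold higher (log2 0.41, SE 0.12, limma adjusted p = 0.0105). Both calls rested on the authors' scaling, since with read totals both had a log2 fold change of about 0 (-0.0834 and -0.0869). Both were lost without the IgG library of experiment 1 (log2 0.44 and 0.45, limma adjusted p = 0.116 and 0.0955) and without that of experiment 2 (0.41 and 0.36, limma adjusted p = 0.146 and 0.18). Nsdhl, the dehydrogenase that works with Msmo1 and Hsd17b7, was at 12.5 and 11.5 FPKM in Cpeb4 and 10.3 and 8.79 FPKM in IgG, and missed the threshold (log2 0.30, SE 0.12, limma adjusted p = 0.0528). Dhcr7, the reductase of the last step, had a log2 fold change of 0.26 (limma adjusted p = 0.0875). Nsdhl and Dhcr7 were called higher without the Cpeb4 library of experiment 2 (both log2 0.36, limma adjusted p = 0.019 and 0.00992). The sterol isomerase Ebp and the sterol reductase Tm7sf2 differed by log2 -0.04 and -0.15 (limma adjusted p = 0.824 and 0.362) with overlapping antibodies, and Tm7sf2 was called lower without the Cpeb4 library of experiment 1 (log2 -0.26, limma adjusted p = 0.0312).

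Among the SREBP regulators, both transcripts for the Insig proteins were higher, and those of Scap and Srebf1 were not called. Insig1 was at 77.7 and 74.4 FPKM in Cpeb4, against 37.0 and 35.7 FPKM in IgG, 2.06-fold higher (log2 1.05, SE 0.12, limma adjusted p = 3.74e-06). Insig2 was at 43.6 and 44.6 FPKM in Cpeb4 and 22.9 and 22.5 FPKM in IgG, 1.90-fold higher (log2 0.93, SE 0.12, limma adjusted p = 1.04e-05). Neither gene's antibodies overlapped, and both calls held under every alternative tried, 14 in all. In RefSeq the whole of Insig1 (chromosome 5: 28071412 to 28078662) overlaps a long noncoding RNA gene, Gm35223, over 7251 bases, and without strand the reads of the 2 cannot be told apart.

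Srebf2, the SREBP factor that mainly drives sterol genes, was at 77.8 and 63.2 FPKM in Cpeb4 and 49.5 and 55.0 FPKM in IgG, 1.34-fold higher (log2 0.42, SE 0.14, limma adjusted p = 0.0176). That call was lost under each other scaling and without the IgG library of experiment 1 (log2 0.35, limma adjusted p = 0.251) or experiment 2 (0.49, limma adjusted p = 0.108). Srebf1, the factor tied more to fatty acid genes, was at 41.3 and 32.4 FPKM in Cpeb4 and 35.6 and 33.1 FPKM in IgG (log2 0.09, SE 0.13, limma adjusted p = 0.574). Scap was at 38.8 and 32.6 FPKM in Cpeb4 and 30.9 and 31.8 FPKM in IgG (log2 0.18, SE 0.13, limma adjusted p = 0.255). For both, the Cpeb4 library of experiment 1 was the highest of the 4, and without the Cpeb4 library of experiment 2 both were called higher (Srebf1 log2 0.26, limma adjusted p = 0.0323; Scap log2 0.30, limma adjusted p = 0.0138). With read totals, in contrast, both were called lower (-0.41 and -0.32).

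The fatty acid chain builders were not higher. Fasn, the fatty acid synthase (chromosome 11: 120805958 to 120825166), was at 39.9 and 33.2 FPKM in Cpeb4, against 46.3 and 56.7 FPKM in IgG. Both Cpeb4 libraries lay below both IgG libraries (log2 -0.48, SE 0.14, limma adjusted p = 0.00941). The difference was -0.21 in experiment 1 and -0.76 in experiment 2, and the call was lost without the IgG library of experiment 2 (log2 -0.34, limma adjusted p = 0.245). Acly, which supplies cytosolic acetyl-CoA, was at 46.5 and 48.3 FPKM in Cpeb4 and 51.6 and 47.7 FPKM in IgG (log2 -0.06, SE 0.12, limma adjusted p = 0.695). Acaca, the carboxylase that makes malonyl-CoA, was at 7.66 and 8.28 FPKM in Cpeb4 and 7.21 and 9.35 FPKM in IgG (log2 -0.04, SE 0.13, limma adjusted p = 0.819). Both overlapped between antibodies.

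The enzymes that modify finished fatty acids included some of the highest members. Scd2, the main brain stearoyl-CoA desaturase of the mouse (chromosome 19: 44293676 to 44306864), was at 449 and 469 FPKM in Cpeb4, against 199 and 199.5 FPKM in IgG, 2.30-fold higher (log2 1.20, SE 0.15, limma adjusted p = 5.62e-06). Its close relative Scd1 was at 21.7 and 22.4 FPKM in Cpeb4 and 14.8 and 14.4 FPKM in IgG, 1.48-fold higher (log2 0.56, SE 0.12, limma adjusted p = 0.00107). The Scd1 value is uncertain, since reads of Scd2 that match both genes could be counted for either, and its call was lost without the IgG library of experiment 2 (log2 0.54, limma adjusted p = 0.05). Elovl6, which elongates saturated chains, was at 30.5 and 31.7 FPKM in Cpeb4 and 12.6 and 13.4 FPKM in IgG, 2.29-fold higher (log2 1.20, SE 0.12, limma adjusted p = 7.79e-07). Elovl5, which elongates polyunsaturated chains, was at 72.4 and 80.7 FPKM in Cpeb4 and 44.7 and 40.5 FPKM in IgG, 1.78-fold higher (log2 0.83, SE 0.13, limma adjusted p = 5.97e-05).

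The fatty acid desaturases Fads1 and Fads2 act in turn on polyunsaturated chains and are neighbours on chromosome 19. Fads2 was at 126 and 110 FPKM in Cpeb4, against 172 and 171 FPKM in IgG (log2 -0.54, SE 0.14, limma adjusted p = 0.00366). Its Cpeb4 libraries lay wholly below IgG, and the call was lost without the IgG library of experiment 1 or 2 (both log2 -0.54, limma adjusted p = 0.0836 and 0.0838). Fads1 was at 126 and 116 FPKM in Cpeb4 and 103 and 99.2 FPKM in IgG, wholly above but not called (log2 0.26, SE 0.13, limma adjusted p = 0.116), and was called higher without the Cpeb4 library of experiment 2 (log2 0.32, limma adjusted p = 0.00768). The positive sign of Fads1 was seen with the scaling of the authors and not with the other 4, which gave log2 values from -0.25 to -0.0206, none of them called. With the trend on gene length and level removed, Fads1 was called lower (log2 -0.41, limma adjusted p = 0.0134).

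Both acyl-CoA ligases, which activate fatty acids for use in lipids, were higher. Acsl3 was at 82.8 and 96.6 FPKM in Cpeb4, against 38.5 and 35.6 FPKM in IgG, 2.38-fold higher (log2 1.25, SE 0.13, limma adjusted p = 1.13e-06). Acsl4, which favours arachidonic acid, was at 8.21 and 12.2 FPKM in Cpeb4 and 4.08 and 3.84 FPKM in IgG, 2.22-fold higher (log2 1.15, SE 0.15, limma adjusted p = 8.33e-06). The Cpeb4 library of experiment 2 was the higher of its pair for both. In RefSeq, Acsl3 overlaps the protein-coding gene Utp14b over 9777 bases, and reads in shared exons could not be told apart without strand. Altogether 16 of the 34 members overlap another gene there, and 5 of these a protein-coding gene. Among them are Acaca (Gm11437, 19116 bases), Lss (4930483K19Rik, 11269 bases), Elovl5 (Gm34771, 5334 bases) and Mvd (Gm51557, 3213 bases). The strands of the overlapping genes were not compared here.

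Ratios of FPKM between members within a library do not depend on library scaling, and 10 were taken after the values above had been seen. Idi1 was at 1.259 and 1.663 times the level of Fdps in Cpeb4 immunoprecipitates, against 0.356 and 0.341 times in IgG. The order of the enzymes was thus the opposite between antibodies, with Idi1 above Fdps in Cpeb4 and below it in IgG. Scd2 was at 11.2 and 14.1 times the level of Fasn in Cpeb4, against 4.29 and 3.52 times in IgG. Scd2 was at 20.7 and 20.9 times the level of Scd1 in Cpeb4, against 13.4 and 13.9 times in IgG. Fads1 was at 0.999 and 1.05 times the level of Fads2 in Cpeb4, against 0.598 and 0.579 times in IgG. In FPKM, near equality of the neighbours in Cpeb4 thus stood against an excess of Fads2 in IgG. That order rests on the implied gene lengths, 3.51 kb for Fads1 and 1.53 kb for Fads2. In reads Fads1 was above Fads2 in IgG as well (10309 against 7528 and 9301 against 7010). The change of the ratio between antibodies does not depend on length. Insig1 was at 2.001 and 2.28 times the level of Scap in Cpeb4, against 1.20 and 1.12 times in IgG. In contrast, Insig1 stood at 1.78 and 1.67 times Insig2 in Cpeb4 and 1.62 and 1.58 times in IgG, and Acsl3 at 10.1 and 7.94 times Acsl4 in Cpeb4 and 9.44 and 9.28 times in IgG. The antibodies did not overlap in 9 of the 10 ratios, the exception being Acsl3 over Acsl4. Because the pairs were picked with the values known, and no share over other gene pairs was taken, this count is only a description. With 2 libraries per antibody the smallest exact two-sided permutation p is 0.333, which those 9 reached, so no ratio can pass a threshold of 0.05.

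**Figure D3:**
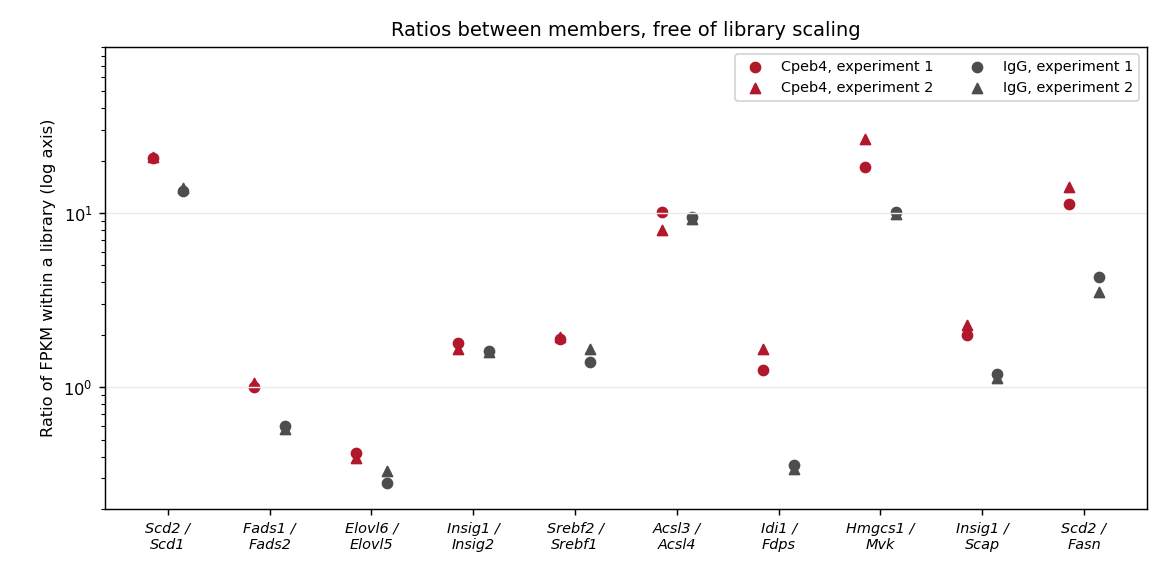
Ratio of FPKM between 2 members within each library (y axis, log scale), with Cpeb4 libraries in red to the left of IgG libraries in grey. Idi1 over Fdps lies above 1 in both Cpeb4 libraries (1.259 and 1.663) and below 1 in both IgG libraries (0.356 and 0.341).

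The experiments agreed in direction for 28 of the 34 members, and the share over all tested genes was not taken. Calls were made from these same differences, so agreement among called members is no separate support. The other 6, Mvk, Tm7sf2, Ebp, Srebf1, Acaca and Acly, were not called and had log2 fold changes between -0.15 and 0.09. Among the 13 members that were higher under all scalings, the difference in a single experiment ran between 0.69 and 1.85 on the log2 scale. It was larger in experiment 2 for 11, a count also without a share over all tested genes. Without any 1 library, all 13 remained called, and 12 of the 13 were called under all 14 alternatives. The exception was Elovl5, which missed the threshold with a trend on gene length and level removed (log2 0.30, limma adjusted p = 0.0607). In fits without a library, only the antibody with both libraries gave a spread, and the lone library was assumed to vary like it.

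Fold changes in these libraries moved with gene length and level over all genes, so both were set beside the members. Across 15633 tested genes, log2 fold change and the gene length implied by FPKM and reads had a Spearman rho of 0.30, and across the 34 members also 0.30. With mean log2 level the rho was 0.33 over 15745 genes and 0.13 over the members. The genes of each set share the same 4 libraries and their depth, and the values are descriptions. The median implied length was 3.64 kb for the members and 3.10 kb for all tested genes, and it was 3.99 kb for the 13 members higher under all scalings and 3.51 kb for the other 21. Fasn, the longest member at 10.2 kb, was lower, and Fads2 at 1.53 kb was lower as well. With a loess trend on length and level removed, 12 members were higher and 12 lower, against 24.3% and 26% of all tested genes, and the median log2 fold change was -0.15 over the members and -0.04 over all tested genes. The 12 higher ones were the 13 above without Elovl5. Idi1 kept the largest value at log2 1.32, and the lowest values were those of Fasn at -1.14, Fads2 at -0.94 and Acly at -0.73.

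**Figure D4:**
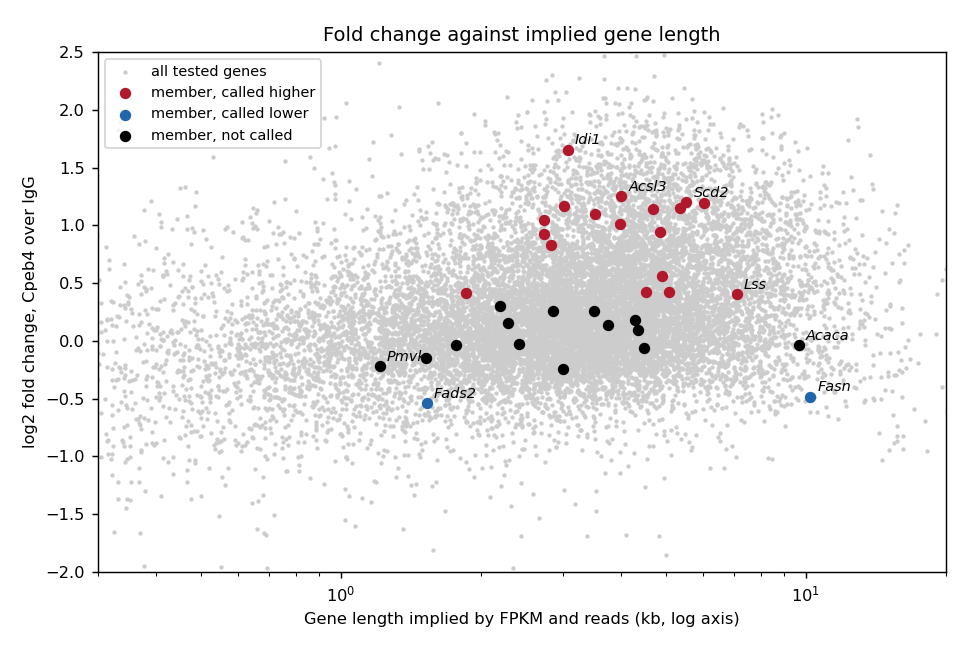
Log2 fold change of Cpeb4 over IgG (y axis) against the gene length implied by FPKM and reads (x axis, kb, log scale), with all tested genes in grey and members coloured by call. Called members occur from 1.53 kb (Fads2, lower) to 10.2 kb (Fasn, lower), with Idi1 highest at log2 1.65 and 3.08 kb.

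Other genes of the same metabolism, 76 in 4 lists, were read beside the members. Of these, 69 passed the filter, and 39 were higher, 5 lower and 25 not called, with a median log2 fold change of 0.37. The share called higher was 56.5%, against 38.8% of all tested genes, whose median was 0.19. Under all 5 scalings 14 of the 69 (20.3%) were higher, against 17.3% of all tested genes, and all 5 lower calls held. The share was thus above the background with the scaling of the authors and close to it when a call was required under all 5 scalings.

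**Figure D5:**
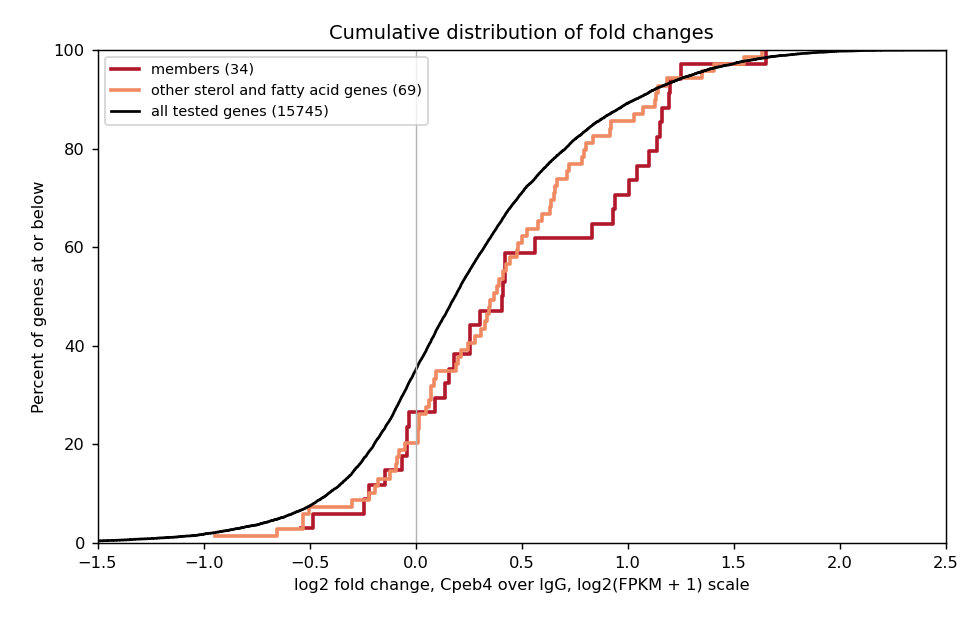
Percent of genes (y axis) at or below a log2 fold change of Cpeb4 over IgG (x axis) for the 34 members in red, 69 other sterol and fatty acid genes in orange and 15745 tested genes in black. The curve of the members lies to the right of all genes over most of the range and is flat between the Scd1 and Elovl5 values of 0.56 and 0.83.

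In the branches that leave the sterol route at farnesyl diphosphate, Ggps1, which makes geranylgeranyl diphosphate, was at 29.2 and 38.3 FPKM in Cpeb4 and 12.6 and 12.4 FPKM in IgG (log2 1.35, SE 0.13, limma adjusted p = 5.33e-07). Nus1, a subunit of the dolichol-making prenyltransferase, was at 37.1 and 48.9 FPKM in Cpeb4 and 19.6 and 19.9 FPKM in IgG (log2 1.07, SE 0.13, limma adjusted p = 4.66e-06). Of the 9 genes in that list 6 were higher and 3 not called. Dhdds, of the same prenyltransferase as Nus1, was among those not called (log2 0.25, SE 0.12, limma adjusted p = 0.107). Of 14 tested genes of SREBP control, 9 were higher, 1 lower and 4 not called. The shares called higher were 66.7% and 64.3%, against 38.8% of all tested genes. Under all 5 scalings they were 33.3% and 28.6%, against 17.3% of all tested genes. Erlin1 and Erlin2, endoplasmic reticulum proteins that restrain SREBP activation, were higher by log2 1.19 and 1.03, and the haem-binding protein Pgrmc1 by 1.13 (limma adjusted p between 9.39e-07 and 8.46e-06). All 3 were higher under all 5 scalings, as were both transcripts for the Insig proteins. The lower one was Nr1h3, the sterol-sensing receptor LXR alpha. It was at 1.08 and 0.888 FPKM in Cpeb4 and 1.87 and 1.75 FPKM in IgG (log2 -0.50, limma adjusted p = 0.0182). Only 35 to 108 reads covered Nr1h3 in a library. It was not called in the authors' comparison of Cpeb4 with IgG (log2 -0.89, authors' adjusted p of 0.13). The Nr1h3 call was lost without the IgG library of experiment 1 (log2 -0.47, limma adjusted p = 0.112) or experiment 2 (-0.54, limma adjusted p = 0.075).

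Of 21 tested genes of sterol uptake and transport, 10 were higher, 2 lower and 9 not called. The share called higher was 47.6%, against 38.8% of all tested genes. Under all 5 scalings only 2 of the 21 (9.52%) were higher, against 17.3% of all tested genes. The sterol carrier Stard4, the cholesterol esterifying enzyme Soat1 and the oxysterol-binding Osbp were higher by log2 0.92, 0.81 and 0.79 (limma adjusted p between 1.41e-05 and 0.000111). The Osbp call was lost with read totals (log2 0.30, limma adjusted p = 0.0532) and with the length and level trend removed (0.26, limma adjusted p = 0.0876) and without the IgG library of experiment 1 (0.52, limma adjusted p = 0.0869). The lipoprotein receptor Lrp1 was lower at 38.7 and 36.1 FPKM in Cpeb4 and 67.1 and 79.0 FPKM in IgG (log2 -0.94, limma adjusted p = 1.83e-05). The late endosomal sterol carrier Stard3 was lower at log2 -0.53 (limma adjusted p = 0.00194), and not called without the IgG library of experiment 1 (-0.47, limma adjusted p = 0.107).

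Of 25 further genes of fatty acid metabolism, 14 were higher, 2 lower and 9 not called. The share called higher was 56%, against 38.8% of all tested genes, and 20% under all 5 scalings, against 17.3%. Hsd17b12, the ketoacyl-CoA reductase of the elongation cycle, was at 113 and 132 FPKM in Cpeb4, against 38.6 FPKM in both IgG libraries (log2 1.63, SE 0.13, limma adjusted p = 9.52e-08). Tecr, the reductase that ends the same cycle, was at 104 and 91.9 FPKM in Cpeb4 and 148 and 135 FPKM in IgG (log2 -0.53, SE 0.13, limma adjusted p = 0.00324). The first and last reductase of the cycle were thus on opposite sides of IgG, though the Tecr call was lost without the IgG library of experiment 1 (log2 -0.47, limma adjusted p = 0.12) or experiment 2 (-0.59, limma adjusted p = 0.0575). The elongases Elovl4 and Elovl2, which make very long and polyunsaturated chains, were higher by log2 1.55 and 1.41 (limma adjusted p = 1.4e-07 and 2.06e-07). Elovl7, named after its value was seen, was higher at log2 1.13, and Elovl1 was lower at -0.65 (limma adjusted p = 6.33e-06 and 0.000356). With Elovl5 and Elovl6, 5 of the 6 elongases in the lists were thus higher and 1 lower, each under all 5 scalings. Over all tested genes 17.3% were higher and 11.6% lower under all 5 scalings. Elovl5 was not called with the length and level trend removed (log2 0.30, limma adjusted p = 0.0607).

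Markers of the cells that could supply these transcripts also differed between antibodies. Of 8 oligodendrocyte markers 6 were higher and 2 not called, with summed levels of 496 and 466 FPKM in Cpeb4 and 334 and 324 FPKM in IgG. Of 8 stem cell and astrocyte markers 5 were higher, 1 lower and 2 not called, with summed levels of 1262 and 1344 FPKM in Cpeb4 and 807 and 770 FPKM in IgG. Neuroblast markers were higher for 4 of 8, microglia and vascular markers for 1 of 5 each, and 2 of 5 ependymal markers and 1 microglia marker were lower. Summed levels were 667 and 706 FPKM in Cpeb4 and 475 and 473 FPKM in IgG for neuroblast markers, and 65.7 and 55.7 FPKM in Cpeb4 and 78.8 and 75.7 FPKM in IgG for ependymal markers. They were 130 and 132 FPKM in Cpeb4 and 112 and 106 FPKM in IgG for microglia markers, and 79.1 and 78.2 FPKM in Cpeb4 and 58.9 and 57.0 FPKM in IgG for vascular markers. Of the microglia sum, P2ry12 made up 54.5 and 66.5 FPKM in Cpeb4 and 26.4 and 23.7 FPKM in IgG. Cx3cr1 was lower, at 13.9 and 12.3 against 28.6 and 26.5 FPKM, and the other 3 were not called. Of the vascular sum, Rgs5 made up 34.5 and 44.1 against 19.3 and 19.7 FPKM, and the other 4 were not called. The counts of called markers stand against 38.8% of all tested genes called higher and 11.6% lower. Each of the 6 higher oligodendrocyte calls of limma was lost under at least 1 other scaling, as were 3 of the 5 higher stem cell and astrocyte calls. No marker of these lists was at 0 in any library. The part of these markers in the values of the lipid genes was not tested.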

How the data were processed

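Per the labels, RNA immunoprecipitated with anti-Cpeb4 or IgG was isolated with a MAGNA RIP kit, and SMART-Seq v4 cDNA and Nextera XT libraries were made. The kit does not mark strand. Named in the submitters' processing notes are the build mm10 and the tools STAR 2.6.0c, DESeq2 1.26.0, HTSeq 0.6.1p2, Trim Galore 0.5.0 and FastQC 0.11.5. The roles and settings of these tools are not given in the sources used here. Per the file headers, the deposited table holds FPKM per library for 53379 genes. The authors' comparison of Cpeb4 with IgG, per the file headers, holds a mean signal (reads divided by size factors), a log2 fold change with its SE, a test score, and p-values before and after adjustment. The table held 0 columns of other samples.

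FPKM joined to the mean signal gave whole reads within 0.01 read for 100% of values, for 30361 genes, and these served for depth, scaling and limma-voom. Genes with at least 1 FPKM in at least 2 libraries were fitted with limma 3.58.1 (R 4.3.3), pseudocount 1, trended prior, antibody as effect and experiment as block, leaving 1 residual degree of freedom and 14.6 from the prior. The block follows the labels' experiment numbers and the table's batch name; deviations of same-numbered libraries from their antibody means correlated at 0.0024. Replicates differed beyond counting noise (chi-square per degree of freedom 20.2 for the Cpeb4 and 4.28 for the IgG pair), so none was 1 library given 2 times. The code was tested on simulated data. Members, lists and tests were chosen with earlier results of these data known. Every member was named. Of the other lists, up to 3 called genes with the largest positive and negative change each were named, with Elovl7 and Dhdds added outside that rule. Some genes that this rule selects are not reported here.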

Additional observations from a re-analysis of the deposited data

How the results depend on the processing

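Of the 34 members, 18 higher and 2 lower were called with the settings of the report. The count of higher members stayed within 12 to 23 under 14 alternatives, and was 13 without the IgG library of experiment 2 and 23 without the Cpeb4 library of experiment 2. Lower members numbered 13 with libraries scaled to read totals, 10 by upper quartile, 6 by trimmed mean of M-values, 9 centred on the median of tested genes and 12 with the length and level trend removed. With no filter on low values limma called 0 members lower (2 at an unadjusted p under 0.05), while limma-voom and the authors' deposited table called 2, and without single libraries the count ran from 0 (1 at an unadjusted p under 0.05, without IgG replicate 2) to 5. No filter also ended the higher calls of Mvd, Sqle, Lss and Srebf2 (limma adjusted p = 0.129, 0.0706, 0.069 and 0.155). Other pathway genes were 39 higher and 5 lower, and became 14 and 23 with read totals, 19 and 22 by upper quartile, 23 and 13 by trimmed mean of M-values, 22 and 14 with centring, 23 and 3 with no filter and 16 and 17 with the trend removed. Without single libraries they ran from 22 to 43 higher and from 2 to 8 lower. Over all genes, 6106 higher and 1822 lower became 2759 and 6670 with read totals, 3240 and 5856 by upper quartile, 4027 and 4024 by trimmed mean of M-values, 3607 and 4857 with centring, 3915 and 875 with no filter and 3825 and 4094 with the trend removed. A filter of 5 FPKM left 937 lower, and without single libraries 3977 to 6534 were higher and 867 to 2497 lower.

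The sign of the log2 fold change turned with read totals for Acat2 (-0.35), Mvd (-0.078), Fdft1 (-0.35), Sqle (-0.0834), Lss (-0.0869), Nsdhl (-0.17), Dhcr7 (-0.23), Scap (-0.32), Srebf1 (-0.41), Srebf2 (-0.0878) and Fads1 (-0.25). By upper quartile it turned for Acat2 (-0.27), Fdft1 (-0.28), Sqle (-0.0017), Lss (-0.0073), Nsdhl (-0.0943), Dhcr7 (-0.15), Scap (-0.24), Srebf1 (-0.33), Srebf2 (-0.0058) and Fads1 (-0.17). By trimmed mean of M-values and with centring it turned for Acat2 (-0.12 and -0.14), Fdft1 (-0.13 and -0.16), Dhcr7 (-0.00833 and -0.04), Scap (-0.0925 and -0.12), Srebf1 (-0.18 and -0.21) and Fads1 (-0.0206 and -0.0412). With the trend removed it turned for Acat2 (-0.32), Fdft1 (-0.33), Sqle (-0.24), Lss (-0.23), Dhcr7 (-0.11), Scap (-0.42), Srebf1 (-0.52), Srebf2 (-0.29) and Fads1 (-0.41). The cause was not tested. The fit with no replicate block gave 17 members higher and 2 lower, with Mvd the call that it changed (limma adjusted p = 0.0513). A pseudocount of 0.1 and limma-voom changed no member's call. With 2 libraries per antibody and 1 residual degree of freedom, calls lean on the spread of all genes, and a member that was not called is not shown to be unbound.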
